A study of Bos grunniens x Bos taurus and Bos grunniens with 6 samples.

Results

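Protein phosphatase 1 (PP1) and calcineurin are serine/threonine phosphatases, and each occurs as a set of paralogous catalytic subunits encoded by separate genes. In this report the 8 genes PPP1CA, PPP1CB, PPP1CC, PPP3CA, PPP3CB, PPP3CC, PPP3R1 and PPP3R2 were chosen by symbol from a deposited table of 18918 genes of testis tissue. The table held 1 gene for each of the 6 catalytic subunits, all of which were abundant enough to be tested among 15042 genes. No row of the table carried the symbol PPP3R1 or PPP3R2, the regulatory B subunits of calcineurin, so both were not analysed here.

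The samples were testes of 3 cattle-yak (C1, C2 and C3), which are first-generation male hybrids sired by Jersey cattle out of Gannan yak cows, and of 3 Gannan yak (Y1, Y2 and Y3), each animal being 4 years old and giving 1 library. The hybrid males are sterile, and the study compared the groups to examine the arrest of sperm formation. The groups were kept in different counties, and per the study's methods cattle-yak were castrated and yak euthanized, whereas the labels give castration for every animal, so that place, any difference in procedure and hybrid status cannot be told apart. Values are FPKM, that is fragments scaled by gene length and library depth, means are given ± SD over the 3 animals of a group, and reads of both groups were mapped to the yak genome.

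The catalytic subunits of PP1 do not work alone in cells. They are held by regulatory proteins that inhibit them or carry them to glycogen, myosin, chromatin or other places. PPP1CA and PPP1CB, for the alpha and beta subunits, are used in most tissues, whereas PPP1CC gives by alternative splicing a widely used form, gamma1, and a form rich in testis and sperm, gamma2, whose activity falls as sperm become motile. Calcineurin is switched on by calcium and consists of a catalytic A subunit, encoded by PPP3CA, PPP3CB or PPP3CC, and a B subunit. PPP3CA and PPP3CB are broadly used, while PPP3CC is paired in sperm with PPP3R2 and is required in mouse sperm for a flexible midpiece. PPP1CC and PPP3CC are called the sperm paralogs below, and the other 4 the somatic paralogs. The deposited values are per gene, so gamma1 and gamma2 were not separated, and how reads shared by paralogs were assigned is not given in the sources used here.

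The libraries held 11175100 to 13136129 fragments on genes. The 6 genes were each covered by at least 265 fragments in every library, a count whose sampling error is 6.14%, and the highest count was 10440. The tissue label was checked against marker genes. In the yak libraries the 4 detected markers of elongating spermatids summed to 7939 to 9701 FPKM, and in cattle-yak to 12.8 to 65.8 FPKM. The 3 detected markers of round spermatids summed to 438.5 to 471.4 FPKM in yak and 4.31 to 24.7 FPKM in cattle-yak, with TXNDC2 listed at 0 in C2 and C3. All 9 tested Sertoli cell markers were higher in cattle-yak, with sums of 1301 to 1526 FPKM against 210.1 to 283.6 FPKM, and no Sertoli, Leydig or myoid marker in the table was listed at 0 in any library.

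On the deposited scale the paralogs of both phosphatases changed in opposite directions, whereas on a scale set by Sertoli cell markers the somatic paralogs were not higher. In cattle-yak testis the sperm paralogs PPP1CC and PPP3CC were significantly lower, by 2.80 and 2.45 times in mean FPKM. The somatic paralogs PPP1CB, PPP3CA, PPP1CA and PPP3CB were significantly higher, by 4.65, 3.85, 3.04 and 2.86 times. Within each library, PPP1CC made up 89.3% ± 0.88 (SD, n = 3) of PP1 catalytic FPKM in yak and 42.0% ± 2.83 in cattle-yak, and PPP3CC made up 67.1% ± 7.56 of calcineurin catalytic FPKM in yak and 20.8% ± 2.28 in cattle-yak. In whole tissue, fewer cells of a type and less RNA per cell cannot be told apart.

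**Figure D1:**
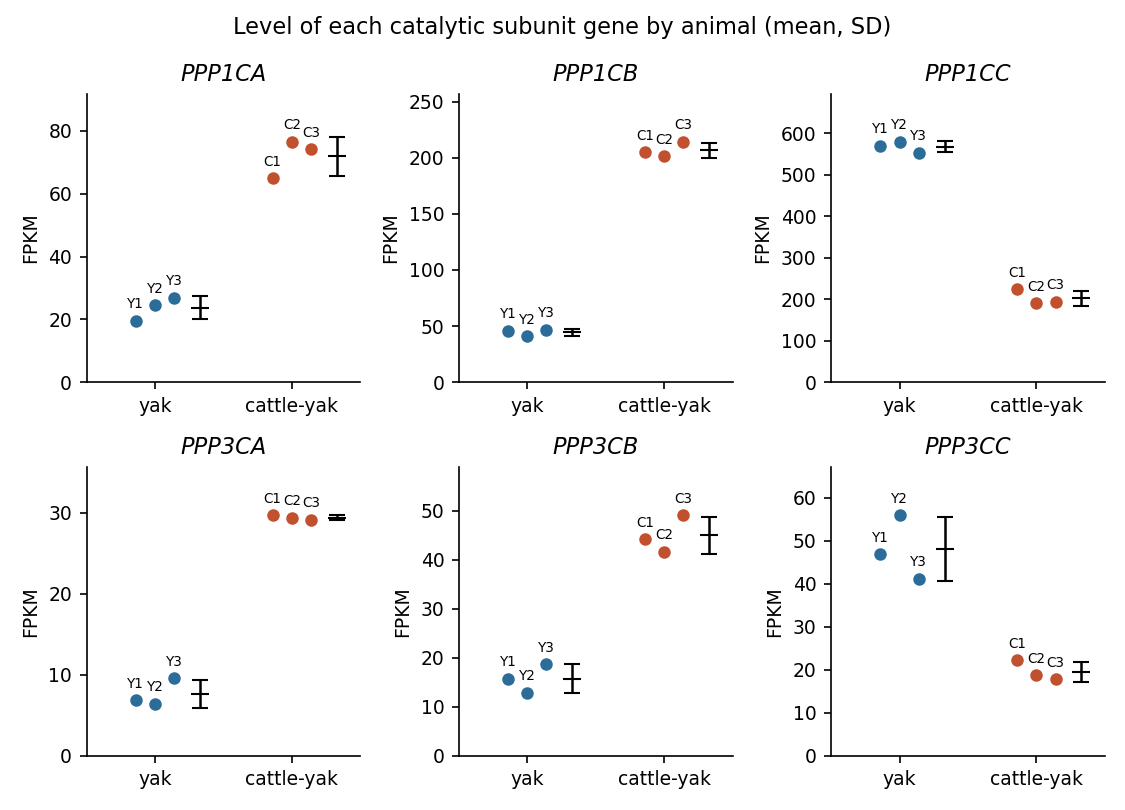
FPKM of the 6 catalytic subunit genes in each animal, with yak in blue and cattle-yak in red; points are animals, and the black bar beside them is the mean with its SD (n = 3), on axes that start at 0. PPP1CC and PPP3CC are lower in every cattle-yak than in every yak, and the other 4 genes are higher on this deposited scale, but not when libraries are centred on Sertoli markers.

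PPP1CC (ENSBGRG00000013221) encodes the gamma subunit of PP1. It had 569.9, 579.4 and 552.1 FPKM in Y1, Y2 and Y3, and 223.2, 190.1 and 193.9 FPKM in C1, C2 and C3. The yak animals lay close together, with C1 the highest of the cattle-yak, and the groups did not overlap. The mean of 567.1 ± 13.8 FPKM in yak placed the gene at rank 109 of all genes of the table, while the mean of 202.4 ± 18.1 FPKM in cattle-yak placed it at rank 416. Its log2 fold change was −1.49 (SE 0.10, limma adjusted p = 2.49e-06). PPP1CC thus remained among the abundant genes of cattle-yak testis, at 0.357 of its yak level.

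PPP1CB (ENSBGRG00000006570), for the beta subunit that works with myosin-targeting partners, showed the largest change of the 6 genes on the deposited scale, though not by median of ratios or on the Sertoli markers. The values were 46.0, 40.9 and 46.7 FPKM in Y1, Y2 and Y3, against 204.7, 201.3 and 214.4 FPKM in C1, C2 and C3. Both groups were narrow and stood far apart. The log2 fold change was 2.19 (SE 0.09, limma adjusted p = 3.65e-07), which 724 of the 15042 tested genes exceeded.

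PPP1CA (ENSBGRG00000017991), for the alpha subunit, had 19.6, 24.5 and 26.8 FPKM in Y1, Y2 and Y3. In C1, C2 and C3 it had 64.9, 76.6 and 74.1 FPKM, so that the lowest cattle-yak animal was above the highest yak animal. The log2 fold change was 1.57 (SE 0.13, limma adjusted p = 1.15e-05).

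PPP3CC (ENSBGRG00000010542), for the gamma catalytic subunit of calcineurin, had 46.9, 56.0 and 41.2 FPKM in Y1, Y2 and Y3. The values in C1, C2 and C3 were 22.2, 18.7 and 17.8 FPKM. Y2 was the highest animal and C3 the lowest, with no overlap between the groups. The log2 fold change was −1.25 (SE 0.14, limma adjusted p = 5.79e-05), on the deposited scale the smallest change in size among the 6 genes, though by median of ratios and on the Sertoli markers only that of PPP1CC was larger.

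PPP3CA (ENSBGRG00000002633), for the alpha catalytic subunit, had 6.87, 6.44 and 9.58 FPKM in Y1, Y2 and Y3. Its values of 29.7, 29.4 and 29.1 FPKM in C1, C2 and C3 were almost equal, with an SD of 0.290 against 1.70 in yak. The log2 fold change was 1.83 (SE 0.15, limma adjusted p = 9.01e-06).

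PPP3CB (ENSBGRG00000025441), for the beta catalytic subunit, had 15.7, 12.8 and 18.7 FPKM in Y1, Y2 and Y3 and 44.2, 41.6 and 49.1 FPKM in C1, C2 and C3. The yak animals had the same order for PPP3CA and PPP3CB, Y3 being the highest and Y2 the lowest, the reverse of their order for PPP3CC. The log2 fold change was 1.47 (SE 0.15, limma adjusted p = 2.70e-05).

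Of the 6 genes 4 were called higher and 2 lower by limma, where a call needed a log2 fold change beyond 1 together with an adjusted p under 0.05. Among all tested genes 33.4% were called higher and 20.8% lower, 54.2% in all, and in 84.1% the groups did not overlap, as they did not in all 6 genes here. The counts by themselves are therefore no result about these genes, and the directions of the single paralogs carry the comparison. Over all tested genes the log2 fold change had a median of 0.51. Relative to this median PPP1CB stood at 1.68, PPP3CA at 1.32, PPP1CA at 1.06, PPP3CB at 0.96, PPP3CC at −1.76 and PPP1CC at −2.00.

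**Figure D2:**
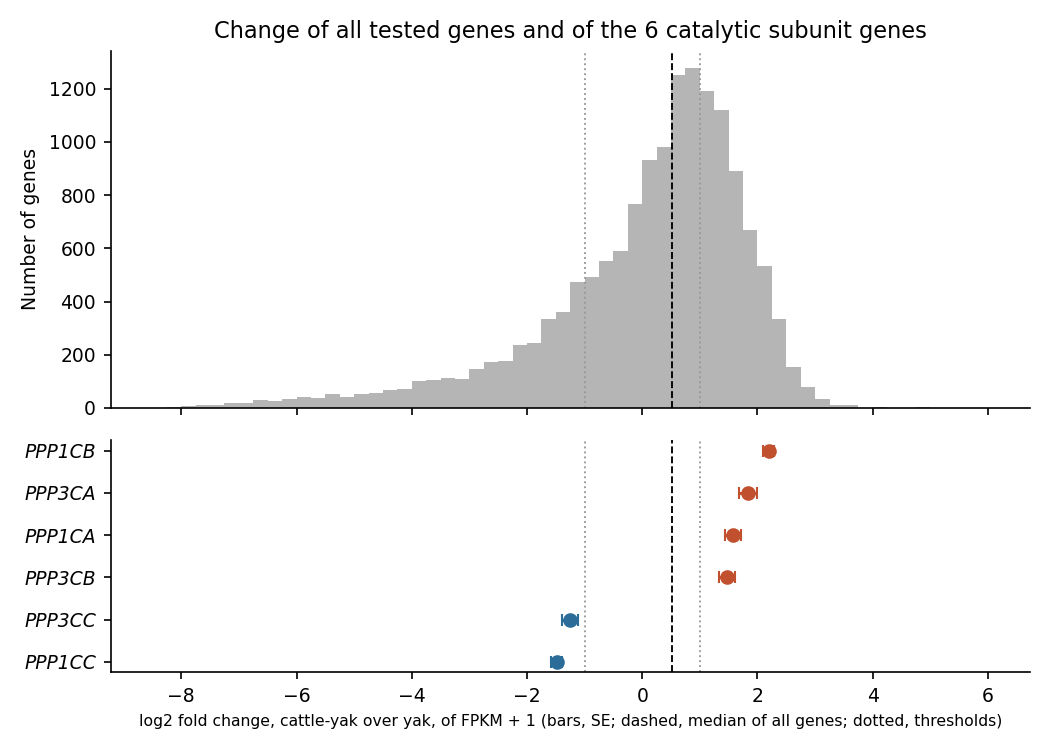
Upper panel, number of genes by log2 fold change of cattle-yak over yak on the FPKM + 1 scale for the 15042 tested genes; lower panel, the 6 catalytic subunit genes with their standard error (red, higher in cattle-yak; blue, lower). The dashed line is the median of all tested genes, 0.51, and the dotted lines are the thresholds of −1 and 1; PPP1CC and PPP3CC lie left of −1, and on this deposited scale, but not on Sertoli markers, the 4 somatic paralogs lie right of 1.

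The direction of the somatic paralogs depended on how the libraries were scaled. With median-of-ratios size factors, under which the median of all genes was 0.01, PPP1CB and PPP3CA remained called higher (1.58 and 1.26), while PPP1CA and PPP3CB fell under the threshold at 0.97 and 0.88. These 2 genes called higher and 2 lower stood against 17.7% and 27.7% of all tested genes. The study, with DESeq at the same thresholds, also reported more genes lower than higher in cattle-yak, whereas the deposited scale gave the reverse. When each library was centred on the 9 tested of 10 Sertoli cell markers, the median of all genes was −1.72. On this scale PPP1CB stood at −0.04 (limma adjusted p = 0.758), PPP3CA at −0.40, PPP1CA at −0.66 and PPP3CB at −0.76. With this centring 0 of the 6 were called higher and 2 lower by limma, against 0.193% and 73.8% of all tested genes. PPP1CC and PPP3CC were called lower under every scaling, with −2.10 and −1.84 by median of ratios and −3.72 and −3.48 on the Sertoli markers. In each scaling the sperm paralogs lay below the median of all genes and the somatic paralogs above it.

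**Figure D3:**
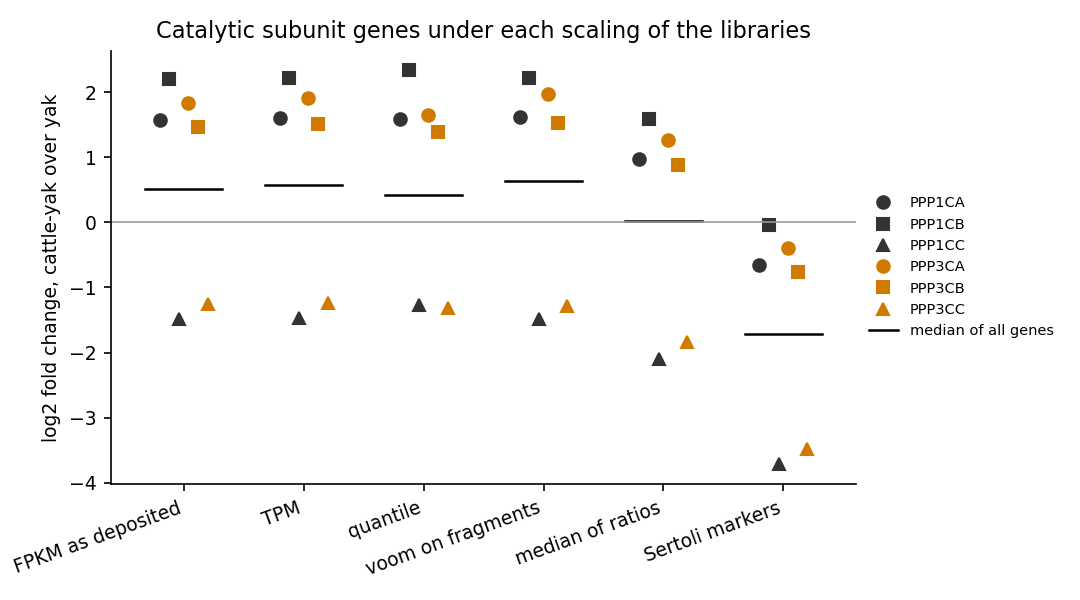
Log2 (foldchange) of cattle-yak over yak for the 6 genes (black, PP1; orange, calcineurin; triangles, PPP1CC and PPP3CC) under 6 ways to scale or fit the libraries, with the median of all tested genes as a short line. The somatic paralogs stand under 0 when the libraries are centred on Sertoli markers, and the triangles stay lowest throughout.

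A share of genes within a library, or a ratio without a pseudocount, does not depend on the scaling between libraries. Either rests on the gene lengths used, here 1359, 2475 and 1375 bases for PPP1CA, PPP1CB and PPP1CC. PPP1CC made up 89.7%, 89.9% and 88.3% of the summed FPKM of the PP1 catalytic subunits in Y1, Y2 and Y3. In C1, C2 and C3 it made up 45.3%, 40.6% and 40.2%. The yak share was thus nearly constant, and in cattle-yak the share fell by 47.2 percentage points on average. PPP1CB took 7.01% ± 0.59 of the sum in yak and 43.0% ± 1.45 in cattle-yak, and PPP1CA 3.72% ± 0.61 and 15.0% ± 1.63.

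For calcineurin, PPP3CC made up 67.5%, 74.4% and 59.3% of the sum in Y1, Y2 and Y3, and 23.1%, 20.9% and 18.5% in C1, C2 and C3. The yak animals differed among themselves more than for PP1, yet the lowest yak share was above the highest cattle-yak share. By FPKM, PPP3CB was the leading catalytic subunit of calcineurin in each cattle-yak, with 46.0%, 46.4% and 51.1% in C1, C2 and C3. This order rests on gene length, 1578 bases for PPP3CB and 4598 for PPP3CA. In fragments PPP3CA was ahead, with 1616, 1510 and 1553 in C1, C2 and C3, against 826, 734 and 899 for PPP3CB. In yak PPP3CB took 22.2% ± 4.95 of the summed FPKM. PPP3CA rose from 10.7% ± 2.72 of the sum in yak to 31.3% ± 1.27 in cattle-yak. The shares of PPP3CB and PPP3CA were not tested by themselves.

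**Figure D4:**
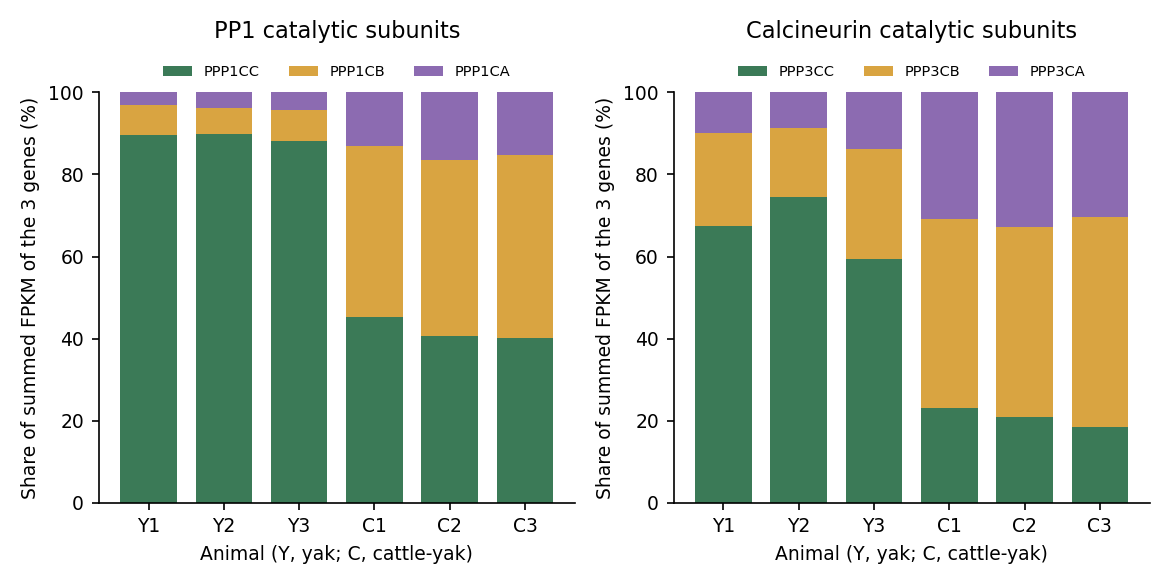
Share of each paralog, in percent, in the summed FPKM of the 3 PP1 catalytic subunits (left) and of the 3 calcineurin catalytic subunits (right), with 1 bar per animal. The sperm paralog (green) fills 88.3% to 89.9% of the PP1 bars and 59.3% to 74.4% of the calcineurin bars in yak, and 40.2% to 45.3% and 18.5% to 23.1% in cattle-yak.

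The ratio of PPP1CC to PPP1CB was 12.4, 14.2 and 11.8 in Y1, Y2 and Y3, and 1.09, 0.944 and 0.904 in C1, C2 and C3. The log2 ratio of these genes, taken on FPKM + 1, differed by −3.68 between the group means, the widest gap among 4 pairs of a sperm with a somatic paralog. PPP1CC over PPP1CA, PPP3CC over PPP3CA and PPP3CC over PPP3CB differed by −3.06, −3.08 and −2.72 on the log2 scale, each lower in cattle-yak. Adding 1 makes these log2 ratios depend somewhat on the scaling. With a pseudocount of 0.1 the 3 differed by −3.10, −3.24 and −2.81, and PPP1CC over PPP1CB by −3.71. The 4 log2 ratios and both shares made 6 comparisons, and in all of them the groups did not overlap. In 84.1% of all tested genes the groups did not overlap either, and the same genes recur across the 6 comparisons. The exact permutation test (two-sided) gave p = 0.1 for each, also after Benjamini-Hochberg adjustment over the 6, and 0.1 is the smallest p that 3 animals against 3 can give. This test therefore cannot reach 0.05 here for a single share or ratio.

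The order of the levels in FPKM, which rests on the gene lengths used, changed between the groups. In yak PPP1CC was followed by PPP3CC (48.0 ± 7.45 FPKM) and PPP1CB (44.5 ± 3.17), whose ranges overlapped, and then by PPP1CA, PPP3CB and PPP3CA, each below the range of the one before. PPP1CC exceeded the next gene by 11.8 times. In cattle-yak PPP1CB (206.8 ± 6.80) and PPP1CC (202.4 ± 18.1) overlapped at the top, followed without overlap by PPP1CA, PPP3CB, PPP3CA and PPP3CC. PPP3CC thus stood second in yak and last in cattle-yak.

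Summed over its catalytic genes, PP1 averaged 635.3 ± 9.54 FPKM in yak against 481.1 ± 12.5 in cattle-yak, whereas calcineurin had 71.4 ± 3.34 in yak and 94.0 ± 3.66 in cattle-yak. Neither sum overlapped between the groups (exact permutation test, two-sided, p = 0.1, the smallest possible). Nor did the groups overlap in 84.1% of all tested genes. The direction of the calcineurin sum rested on the scaling, since its log2 ratio of group means was 0.40 as deposited, −0.22 by median of ratios and −1.84 on the Sertoli markers, while the PP1 sum was lower in cattle-yak under each of these. PP1 exceeded calcineurin by 9.15, 8.57 and 9.01 times in Y1, Y2 and Y3 and by 5.13, 5.22 and 5.02 times in C1, C2 and C3.

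The markers of spermatids moved in the same direction as the sperm paralogs, with 3 of 3 tested round spermatid and 4 of 4 tested elongating spermatid markers called lower, by medians of −5.04 and −7.96 on the log2 scale. Of the cattle-yak animals C1 had the highest PPP1CC and PPP3CC and also the highest summed markers of round spermatids (24.7 FPKM, against 11.6 in C2 and 4.31 in C3) and elongating spermatids (65.8 FPKM, against 24.6 and 12.8). Between C2 and C3 PPP3CC kept the order of these sums (18.7 and 17.8 FPKM), whereas PPP1CC did not (190.1 and 193.9 FPKM). Of the 6 tested spermatocyte markers, 1 was called higher and 1 lower, with summed levels of 165.2 to 260.04 FPKM in cattle-yak and 285.7 to 300.2 FPKM in yak. By median of ratios 0 spermatocyte markers were called higher by limma and 2 lower, and on the Sertoli markers 0 and 6. With the somatic paralogs rose all 9 tested Sertoli markers, all 7 gene IDs of the 5 Leydig markers in the table and all 5 myoid markers. Their medians were 2.24, 1.92 and 1.92, and 4 of 5 spermatogonial markers rose too (median 1.99). By median of ratios 8, 5, 5 and 4 of these were called higher, against 17.7% of all tested genes. On the Sertoli markers 0 in each list were called higher by limma, as were only 0.193% of all tested genes. For the Sertoli list this was set in advance, since the centring removes the mean change of those markers. Of the endothelial markers 2 of 5 were called higher and 1 lower, and of the macrophage markers 2 and 2 of 5. On the deposited scale all marker counts stand beside 33.4% of all tested genes called higher and 20.8% called lower. The part of these cell types in the values of the phosphatase genes was not tested.

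Among all tested genes outside the family, those with the profile most like PPP1CC over the 6 animals were TBC1D2, MEMO1 and WDR31. Their centred log2 (FPKM + 1) values differed from those of PPP1CC by a root mean square of 0.036, 0.038 and 0.039. MEMO1, a mediator of cell motility, had 198.1, 213.1 and 189.1 FPKM in Y1, Y2 and Y3 and 79.1, 68.9 and 70.2 FPKM in C1, C2 and C3. For PPP3CC the nearest were BCKDK, FDFT1 and STIM1, with root mean square differences of 0.051, 0.059 and 0.063. STIM1, a calcium sensor of the endoplasmic reticulum, had 30.8, 37.2 and 28.4 FPKM in Y1, Y2 and Y3 and 14.3, 13.5 and 11.1 FPKM in C1, C2 and C3. Like PPP3CC, each of these 3 genes was highest in Y2 and lowest in C3, which follows largely from their choice by profile over these animals.

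Proteins that bind PP1 were read from a list of inhibitors and nuclear or sperm partners. This list, like those below, was chosen with earlier results of these data known, so its counts are description only. Of its 21 genes 16 were in the table, on 19 gene IDs, of which 18 were tested. Of these 1 was called higher (5.56%) and 8 lower (44.4%), against 33.4% and 20.8% of all tested genes. Among those called lower, PPP1R2 and CCDC181 each counted on more than 1 gene ID. The median log2 fold change of the list was −0.60, against 0.51 for all tested genes. By median of ratios 0 were called higher by limma and 11 lower (17.7% and 27.7% of all tested genes), and on the Sertoli markers 0 and 17, a scale on which 73.8% of all tested genes were called lower.

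PPP1R2, inhibitor 2 of PP1, stood on a pair of gene IDs, which are uncertain as copies. The more abundant (ENSBGRG00000022948) averaged 395 ± 12.1 FPKM in yak against 96.8 ± 5.03 in cattle-yak, with a log2 fold change of −2.02 (limma adjusted p = 3.88e-07). The other (ENSBGRG00000020404) had 133.7, 136.01 and 170.4 FPKM in Y1, Y2 and Y3 and 2.55, 3.58 and 1.75 FPKM in C1, C2 and C3, a log2 fold change of −5.37. PPP1R2C, of the same inhibitor family, was represented by 795, 687 and 786 fragments in Y1, Y2 and Y3 and by 9, 8 and 5 in C1, C2 and C3. Its log2 fold change was −5.63, and −6.42 with a pseudocount of 0.1.

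PPP1R11, inhibitor 3 of PP1, averaged 250.1 ± 21.6 FPKM in yak against 61.9 ± 10.1 in cattle-yak, a log2 fold change of −2.01 (limma adjusted p = 3.34e-06). PPP1R36 was lower by −1.96, and both gene IDs with the symbol CCDC181, a protein of the flagellum, by −3.96 and −3.35. SPZ1, a transcription factor of the testis that binds the gamma2 form, fell by 6.77 on the log2 scale, a size that depends on the pseudocount because C1, C2 and C3 held 3, 5 and 1 fragments. PPP1R7, the sds22 partner of PP1, averaged 62.2 ± 3.18 FPKM in yak against 40.6 ± 3.53 in cattle-yak. Its log2 fold change of −0.61 did not pass the threshold of 1, although by median of ratios it was called lower (−1.21). PPP1R1A, inhibitor 1, was the gene called higher (1.43), although not by median of ratios (0.85).

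Another list held the subunits that carry PP1 to its targets. Of 26 genes 23 were in the table, on 25 gene IDs, and of the 21 tested 10 were called higher (47.6%) and 2 lower (9.52%), against 33.4% and 20.8% of all tested genes, with a median of 0.91 against 0.51. By median of ratios 5 were higher and 3 lower, and on the Sertoli markers 0 and 14, so that the balance of calls also changed with the scaling. PHACTR2, which binds actin and PP1, had the largest increase, with 20.04 ± 1.29 FPKM in cattle-yak, 3.91 ± 0.26 in yak and a log2 fold change of 2.10. PPP1R15B and PPP1R15A, which bring PP1 to the initiation factor eIF2, had 1.81 and 1.11. Of the glycogen-targeting subunits PPP1R3D, PPP1R3B and PPP1R3F were called higher (1.57, 1.57 and 1.34), and PPP1R3C lower.

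PPP1R3C had 34.3, 49.8 and 25.6 FPKM in Y1, Y2 and Y3 and 3.26, 3.67 and 2.40 FPKM in C1, C2 and C3, a log2 fold change of −3.15 (limma adjusted p = 5.87e-06). The other gene called lower was PHACTR1 (−2.88). PPP1R12A, the myosin phosphatase targeting subunit that works with PPP1CB, averaged 45.5 ± 0.92 FPKM in cattle-yak against 23.7 ± 1.2 in yak. Its log2 fold change of 0.91 did not pass the threshold of 1, so it was not called with PPP1CB.

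**Figure D5:**
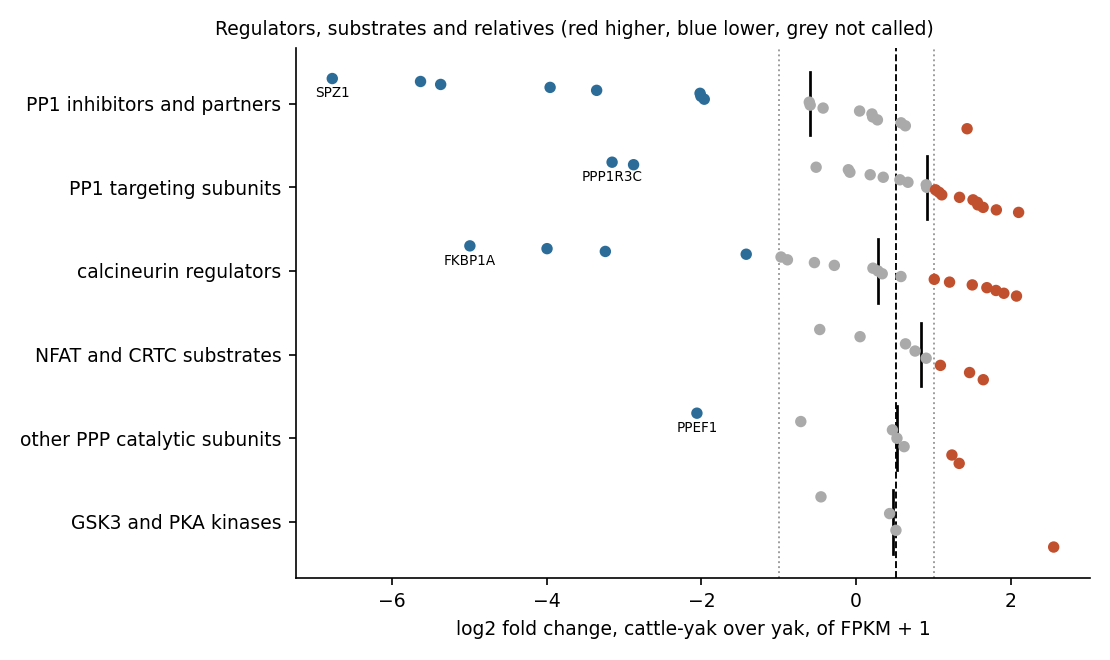
Log2 (foldchange) of cattle-yak over yak, on the FPKM + 1 scale, of the tested gene IDs in 6 lists of regulators, substrates and relatives; each point is 1 gene ID, red called higher, blue called lower and grey not called, and short black lines are list medians. The dashed line is the median of all tested genes, 0.51; the blue points of PP1 inhibitors and partners reach −6.77 at SPZ1, while 10 of the 21 targeting subunits are red.

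The genes that activate, inhibit or anchor calcineurin were called about as often as all tested genes. Of 19 genes 16 were in the table, on 22 gene IDs, of which 19 were tested, 7 were called higher (36.8%) and 4 lower (21.1%), against 33.4% and 20.8% of all tested genes, with a median of 0.28 against 0.51. Among those called higher, FKBP1A counted on more than 1 gene ID. By median of ratios 5 of the tested gene IDs were higher and 7 lower, and on the Sertoli markers 0 and 14. RCAN2 and RCAN1, regulators that inhibit calcineurin, had log2 fold change values of 2.07 and 1.5. RCAN1 had 3.83, 3.86 and 4.00 FPKM in C1, C2 and C3, against 0.748, 0.917 and 0.547 FPKM in Y1, Y2 and Y3. AKAP5, a scaffold that anchors calcineurin, had 1.91, with C3 (8.95 FPKM) well above C1 and C2 (3.54 and 2.57 FPKM).

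SPATA33, which ties calcineurin to the mitochondria of mouse sperm, had 84.6, 67.4 and 89.3 FPKM in Y1, Y2 and Y3 and 7.81, 2.39 and 3.36 FPKM in C1, C2 and C3. Its log2 fold change was −4.00 (limma adjusted p = 7.81e-06), a far larger fall than that of PPP3CC on the same scale. CABIN1, a calcineurin-binding inhibitor, had −0.89 and was not called, although by median of ratios it was called lower (−1.46).

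The immunophilins are the proteins through which the drugs tacrolimus and cyclosporin act on calcineurin. FKBP1A stood on 4 gene IDs, which are uncertain as copies. The most abundant in yak (ENSBGRG00000006597) had 652.9 ± 50.6 FPKM in yak and 45.2, 22.7 and 6.85 FPKM in C1, C2 and C3, a log2 fold change of −4.99. Another (ENSBGRG00000012031) averaged 96.2 ± 10.2 FPKM in yak against 338.1 ± 18.7 in cattle-yak, a log2 fold change of 1.81, and the 2 remaining, of lower level, had 1.21 and 1.01. FKBP1B was lower (−3.24) and PPIB higher (1.69), while the most abundant PPIA stood at 0.34 and was not called.

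Of the substrates of calcineurin in the NFAT, CRTC and TFEB group, 8 gene IDs were tested, 3 were called higher (37.5%) and 0 lower by limma, against 33.4% and 20.8% of all tested genes, with a median of 0.83 against 0.51. At 1.64 TFEB led, followed by CRTC3 at 1.47 and NFATC4 at 1.09. The most abundant NFAT gene, NFATC3, averaged 37.8 ± 1.07 FPKM in cattle-yak against 36.5 ± 2.33 in yak, with overlapping ranges. By median of ratios 1 of the 8 was called higher (TFEB, 1.24), and on the Sertoli markers 6 were lower, where 73.8% of all tested genes were.

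The annotation in the deposited table gave each PP1 gene the same 21 KEGG pathways and each calcineurin gene the same 32. They shared 7 of these between the families, among them Oocyte meiosis, Cellular senescence and cGMP-PKG signaling pathway. The PP1 genes carried no GO term, whereas PPP3CA, PPP3CB and PPP3CC carried 43, 38 and 13, of which 9 were common to the 3 genes. The annotation thus did not separate the sperm from the somatic paralogs by pathway.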

How the data were processed

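Testis RNA of 3 cattle-yak and 3 yak was sequenced as 150 bp pairs from stranded mRNA libraries. After trimming with Trimmomatic, the authors aligned reads to LU_Bosgru_v3.0 using HISAT2 and computed FPKM using Cufflinks and counts using HTSeq, according to the methods. The deposited FPKM values are per gene, scaled by library depth and not otherwise scaled between libraries. How reads shared by paralogs were assigned, and tool versions, are not given in the sources used here, and cattle alleles may map less well to the yak genome. Replicate numbers follow accession order.

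Whole fragments were recovered from the ratios of FPKM values between libraries for 17973 genes. For 99.4% of the 12342 genes used, the implied gene length was within 0.02 of a whole base. Sampling errors of fragments cover counting error only, since molecules were not tagged.

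Genes with a mean of at least 0.5 FPKM were tested two-sided with limma 3.58.1 in R 4.3.3 on log2 (FPKM + 1), with a variance trend, and the calls required an adjusted p (Benjamini-Hochberg) under 0.05 together with a log2 fold change beyond 1. For low genes this scale gives too small a change. When tested on simulated data for this comparison, with 200 of 15042 genes changed 4-fold, 192 of these and 1 unchanged gene were called by limma. The changed genes were drawn from the more abundant ones, as many raised as lowered, with no shift of the other genes. The simulation therefore does not cover low genes or the scaling between libraries. Shares and ratios were compared with exact permutation tests in scipy 1.17.1, with Python 3.11.15.

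Named genes are the 6 catalytic genes, called and leading genes of the lists, and the 3 genes nearest in profile to each sperm paralog. List genes named without a call were chosen after their values were seen. The genes and lists were chosen with earlier results of these data known, and the sums over paralogs were added after the values were seen. Alternatives were pseudocount, filter, scaling, limma without trend, voom on fragments and the omission of each animal. Symbols on several gene IDs were kept apart. Gene sequences and positions were not used. The values of a further list gene are not reported here.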

Additional observations from a re-analysis of the deposited data

How the results depend on the processing

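Of 90 alternative values of the 6 catalytic genes, 84 kept their direction and their side of the threshold. With median-of-ratios scaling PPP1CA (0.97) and PPP3CB (0.88) came under it, and centred on Sertoli markers PPP1CA (−0.66), PPP3CA (−0.40) and PPP3CB (−0.76) reversed, while PPP1CB (−0.036) was near 0 (limma adjusted p = 0.758). Hence 2 and 0 of the 6 were called higher with these scalings, and 2 were called lower with each. The summed calcineurin level (log2 ratio 0.40) reversed as well, to −0.22 and −1.84, in an alternative chosen after seeing the data.

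Of the 77 tested list gene IDs 24 were called higher (31.2%) and 15 lower (19.5%). These shares lay near the 33.4% and 20.8% of all tested genes. Median of ratios gave 12 and 24, Sertoli centring 0 and 59, and a minimum of 5 FPKM 15 higher, with fewer genes tested. Of all tested genes 5023 were higher and 3136 lower, against 2655 and 4173 by median of ratios and 29 and 11098 on Sertoli markers. Apart from the scaling itself, the cause of these shifts was not tested.

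With each animal left out, 4 catalytic genes were higher and 2 lower throughout, as were 21 to 24 and 15 to 16 list genes and 4904 to 5133 and 3076 to 3192 of all genes. The difference in share was −48.9 to −46.3 percentage points for PPP1CC and −50.1 to −42.6 for PPP3CC. The log2 ratios differed by −3.20 to −2.93 (PPP1CC over PPP1CA), −3.76 to −3.60 (PPP1CC over PPP1CB), −3.34 to −2.87 (PPP3CC over PPP3CA) and −2.95 to −2.47 (PPP3CC over PPP3CB). No paired analysis was possible because the animal numbers in the labels are not shared between the groups. Since each symbol of the 6 genes stands on 1 gene ID, the most abundant ID gave the same shares.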

Other observations

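Of the other catalytic subunits of the same phosphatase family 7 gene IDs were tested, and 2 were called higher (28.6%) and 1 lower (14.3%). These shares lay near those of all tested genes (33.4% and 20.8%), as did the median log2 fold change of 0.53 against 0.51. PPP2CA, the main catalytic subunit of PP2A, averaged 259 ± 20.5 FPKM in cattle-yak against 102.2 ± 6.29 in yak, a log2 fold change of 1.33 (limma adjusted p = 4.89e-06). PPP5C had 1.24, and both came under the threshold by median of ratios (0.72 and 0.64) and turned on the Sertoli markers (−0.90 and −0.99). PPEF1, a phosphatase with calcium-binding domains, had 18.1, 12.9 and 13.96 FPKM in Y1, Y2 and Y3 and 2.97, 2.18 and 3.35 FPKM in C1, C2 and C3, a log2 fold change of −2.06. PPP4C, with 404.2 ± 9.50 FPKM in yak and 245.8 ± 8.50 in cattle-yak, had −0.72 and was not called on the deposited scale. By median of ratios PPP4C was called lower (−1.33).

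Among kinases that act with or against PP1, PRKACB, a catalytic subunit of protein kinase A, averaged 51.1 ± 2.70 FPKM in cattle-yak against 7.91 ± 0.97 in yak. Its log2 fold change of 2.55 (limma adjusted p = 5.46e-07) was 1.97 by median of ratios and 0.32 on the Sertoli markers, where it was no longer called. PRKACA (0.43), GSK3A (0.51) and GSK3B (−0.45) were not called on the deposited scale. By median of ratios GSK3B was called lower (−1.07), and PRKACA and GSK3A were below 0 (−0.18 and −0.10).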
